A study of Canis lupus familiaris with 6 samples.

Results

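The cytosolic ribosomal protein genes were taken as every name in the array's annotation that begins with RPL or RPS and a digit, together with RPSA and the stalk protein names RPLP0 to RPLP2, with the RPS6K kinases left out. This gave 50 genes of 34378 names on the array, and each gene was read from its brightest probe. The arrays measured total RNA of MDCK-pTR GFP-RasV12 cells, a line derived from Madin-Darby canine kidney epithelium in which tetracycline switches on GFP-tagged oncogenic Ras. Cells were cultured alone (3 samples) or mixed with normal MDCK cells at 10 MDCK cells to 1 RasV12 cell (3 samples), both on collagen, and all received tetracycline for 24 h before GFP-positive cells were sorted. Both groups therefore carried RasV12, and only the neighbouring cells differed. The source label of mixed replicate 2 gives 100 MDCK cells to 1 in place of 10, and the RNA extraction note names cells that also carried mCherry-β-catenin Δ131, which neither the titles nor the study's methods give for these samples. The labels do not say whether the replicates were separate cultures, so p-values measure the spread between these samples, which may be technical. The alone arrays shared 1 slide and the mixed arrays the other, so in every value below the slide and the culture cannot be told apart.

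Ribosomal proteins are the protein part of the ribosome, the particle that reads mRNA and joins amino acids. Those of the small subunit (RPS) help to decode the message and those of the large subunit (RPL) surround the site where peptide bonds form, while the acidic stalk recruits elongation factors. In mammals their mRNAs carry a terminal oligopyrimidine tract at the start, which places their translation under mTORC1, and oncogenic Ras, mTORC1 and MYC are textbook regulators of ribosome production.

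The array held 94 probes for these genes, 22 genes with a single probe and 28 with 2 to 5. All 94 probes were well above background on all 6 arrays and none was saturated, so each member was tested. By role, 19 members belong to the small subunit and 27 to the large subunit. Of the 4 others, RPL3L and RPL22L1 are paralogues that can replace their parent protein in the ribosome, RPL7L1 is a nucleolar relative of RPL7 and RPS19BP1 is a binding partner of RPS19, so these last 2 carry the name without being ribosomal proteins. RPLP1, RPLP2, RPS6, RPS19, RPS25, RPL5, RPL11 and RPL38 were not among the array's gene names and are not members.

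The probes are 60 bases long and their sequences, as the array files give them, show what was hybridised. The first pair is shown because RPL7L1 was called and RPL7 is the gene it resembles. Positions are on canFam3, and both probes can be read without a stop codon in at least 1 frame.

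RPL7L1, chr12:11449531-11449590, plus strand: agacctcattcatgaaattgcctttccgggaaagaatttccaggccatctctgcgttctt
RPL7, chr29:21881467-21881526, minus strand: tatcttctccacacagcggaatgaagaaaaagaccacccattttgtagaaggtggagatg

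The next pair, both from RPL15, shows how close 2 probes of the same gene can lie. The capitals mark the 54 bases they share.

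RPL15, chr23:19827396-19827455, minus strand: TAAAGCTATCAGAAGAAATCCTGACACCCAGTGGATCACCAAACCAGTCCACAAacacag
RPL15, chr23:19827402-19827461, minus strand: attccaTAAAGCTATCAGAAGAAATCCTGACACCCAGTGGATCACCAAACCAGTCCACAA

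The last pair is shown because these probes of RPLP0 and RPS3 moved apart from the brightest probe of their gene. The RPLP0 probe spans 415 bases of the genome and so crosses an intron.

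RPLP0, chr26:16148662-16149076, minus strand: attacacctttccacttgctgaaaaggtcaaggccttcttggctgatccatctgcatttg
RPS3, chr21:23182079-23182138, minus strand: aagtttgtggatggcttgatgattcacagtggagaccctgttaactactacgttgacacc

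Values below are relative log2 signals, that is the log2 processed intensity minus the array's 75th percentile, and differences are mixed minus alone from limma's fit over 26535 probes with Benjamini-Hochberg adjustment. A probe was called when its adjusted p was under 0.05. The 75th percentile intensity ran from 592 to 700 across the arrays and the share of probes well above background from 60.8% to 66.4%, and the number of arrays, 3 in each group, limits the precision.

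Few ribosomal protein genes differed between the cultures. Of 50 members, 2 were called, RPL7L1 and RPL34, both lower in mixed culture and neither by as much as 1.5-fold, and 0 were called higher. At an unadjusted p under 0.05 there were 6 of 50, 4 lower and 2 higher, beside 8343 of the 26535 tested probes. Over all tested probes 11.2% were called, and 5.72% were called lower. The members' median log2 difference was -0.02, beside -0.0037 over all tested probes, with 22 members above 0 and 28 below it. In sorted bulk RNA, fewer cells of a type and less RNA per cell cannot be told apart.

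**Figure D1:**
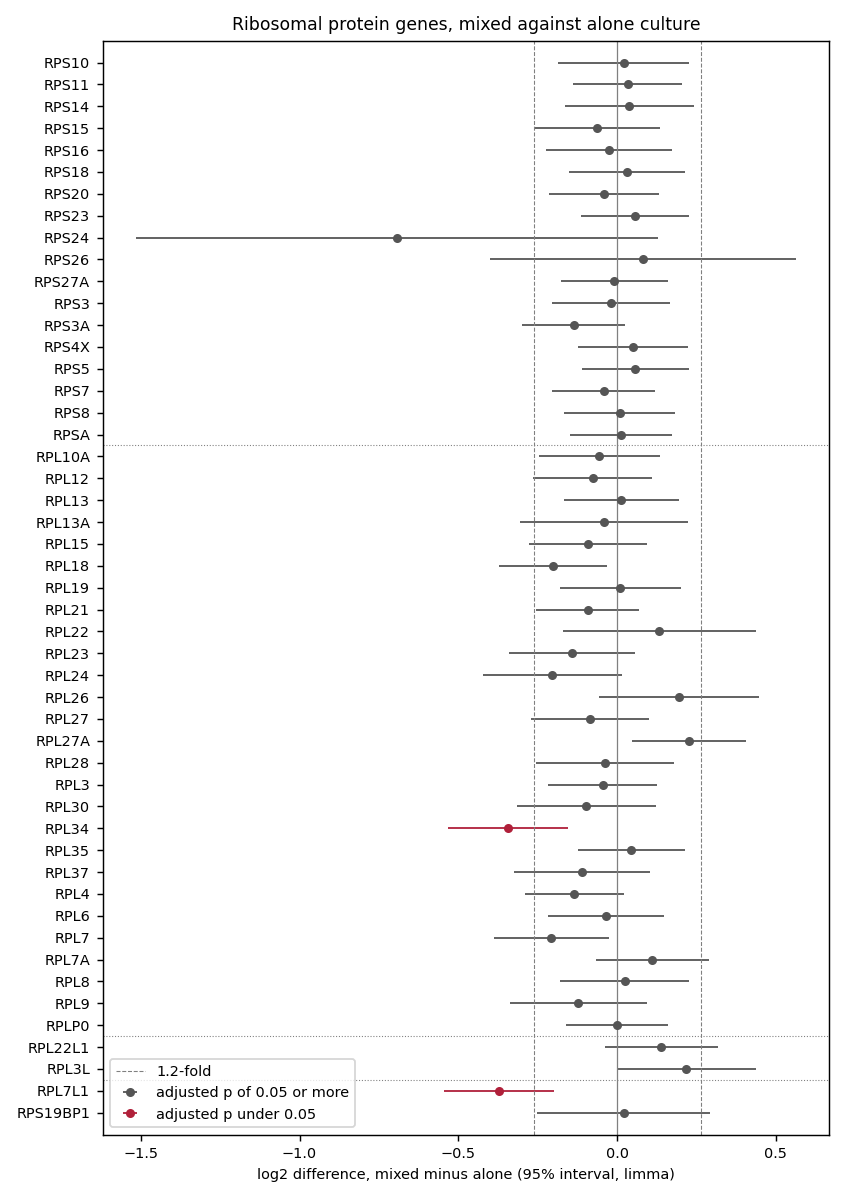
Log2 difference of 49 of the 50 genes, mixed minus alone, with its 95% interval from limma (n = 3 and 3 arrays), in the order small subunit, large subunit, paralogues, and the 2 genes that encode no ribosomal protein, separated by dotted lines. Dashed lines mark 1.2-fold, red marks the 2 called genes, and 25 of the 49 intervals lie wholly between the dashed lines.

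The 95% intervals reflect the scatter between arrays for the brightest probe of each gene under the main scaling. They do not cover the choice of scaling, other probes of the gene or the slide. Scaled to the spike-in controls, the members' median was -0.19 rather than -0.02. For 25 of the 50 members the whole 95% interval lay within 1.2-fold in either direction, and for 49 it lay within 1.5-fold, the exception being RPS24. The corresponding shares over all tested probes were 12.7% and 69.7%. Brightness moves with this width. Among the 1217 tested probes with a relative log2 signal of at least 5, a limit chosen after the values were seen, 32.6% had intervals within 1.2-fold and 6% were called. Of the 41 members above that limit, 25 had such intervals and 0 were called. An unadjusted p under 0.05 was found for 2 of the 41, beside 247 of the 1217 bright probes. The 2 called members were among the 9 below that limit.

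The groups did not overlap for 12 members, 9 with all mixed arrays lower and 3 with all mixed arrays higher. Among all probes tested, 37.2% had groups without overlap, 19.4% with mixed lower and 17.8% with mixed higher. Among the 1217 bright probes the split was 28.6% lower and 6.57% higher. Of the 27 large subunit genes 7 had all mixed arrays lower and 2 all higher, and of the 19 small subunit genes 1 had all mixed arrays lower and 0 all higher.

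RPL7L1 (probe given above) was called with the largest size. Its relative log2 signal was 0.34, 0.36 and 0.38 in the alone arrays and 0.07, -0.08 and -0.03 in the mixed arrays. The alone arrays lay within 0.05 of each other and all above the mixed arrays. The log2 difference was -0.37 (95% interval -0.55 to -0.20, limma adjusted p = 0.029), or 22.8% less signal. A second probe annotated to RPL7L1 by its description only, and so outside the rule, gave -0.11 (adjusted p = 0.43) with overlapping groups. It was the brighter probe, with intensities of 2491 to 3264 against 579 to 896 for the called one, so the call rests on the dimmer of the 2.

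RPL34, a protein of the large subunit, was the other called gene. A probe described as L34-like, outside the rule, was not well above background on any array and was not tested. The only probe under the name RPL34, at chr32:28994528-28994587 on canFam3, has a stop codon in all 3 forward frames, and it was dim, with intensities between 212 and 302. The relative log2 signal was -1.12, -1.21 and -1.12 in the alone arrays and -1.41, -1.60 and -1.48 in the mixed arrays, without overlap. The log2 difference was -0.34 (95% interval -0.53 to -0.15, limma adjusted p = 0.043). Both calls were lost when alone replicate 2, alone replicate 3, mixed replicate 2 or mixed replicate 3 was left out, with adjusted p between 0.11 and 0.15, at differences of -0.29 to -0.37, and that of RPL34 also without mixed replicate 1 (adjusted p = 0.053). Calls over all tested probes went from 2978 to 24 and 7 without alone replicate 2 or 3. They went to 9 and 12 without mixed replicate 2 or 3. Without alone replicate 1 RPL7L1 and RPL34 were both called, and RPS24 with them.

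**Figure D2:**
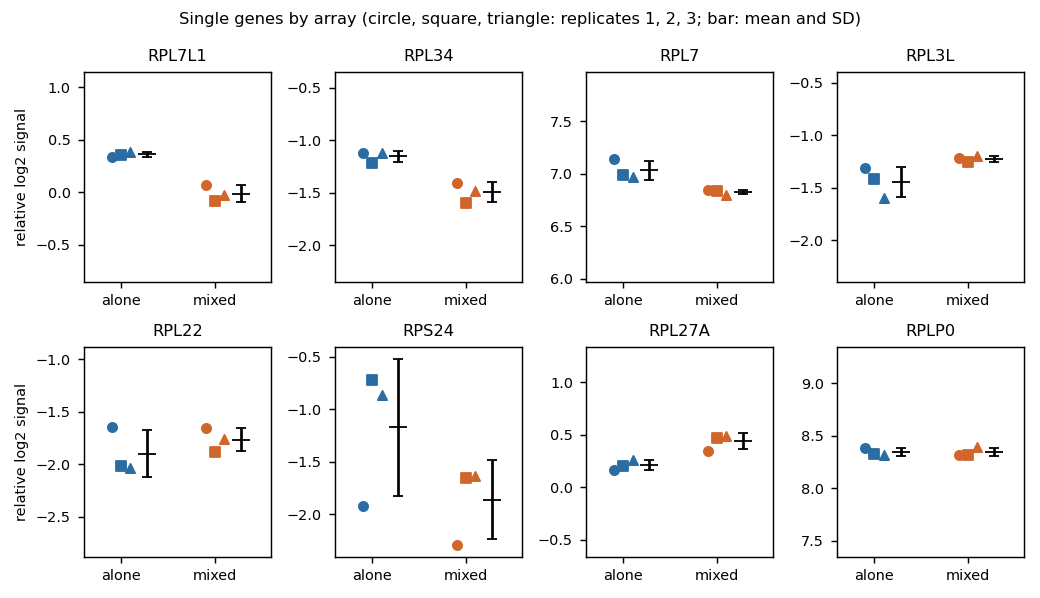
Relative log2 signal of 8 genes on each array, with equal axis spans of 2 log2 units, circles, squares and triangles for replicates 1, 2 and 3, and a bar for the mean and SD of each group (n = 3). RPL7L1, RPL34 and RPL7 lie lower in all mixed arrays and RPL3L and RPL27A higher, RPS24 has 1 alone array far from the other two, and RPLP0 hardly differs.

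By their brightest probes, small subunit genes had small estimated differences apart from RPS24. Their median log2 difference was 0.01, and apart from RPS24 they ran from -0.14 for RPS3A to 0.08 for RPS26. The interval of RPS26 was wide, from -0.40 to 0.56. Other probes of these genes reached 0.33 for RPS18 and -0.21 for RPS3A. None of the 19 was called or had an unadjusted p under 0.05.

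RPSA, the small subunit protein also known as the laminin receptor, read 8.31, 8.23 and 8.21 alone and 8.28, 8.24 and 8.26 mixed, a difference of 0.01 (95% interval -0.15 to 0.17, adjusted p = 0.91). RPS3, which sits at the mRNA entry channel and also acts in DNA repair, read 8.35, 8.19 and 8.17 alone and 8.18, 8.22 and 8.24 mixed (difference -0.02, interval -0.20 to 0.17, adjusted p = 0.90). RPS4X, the X-linked form of its protein, read 8.54, 8.40 and 8.40 alone and 8.49, 8.48 and 8.52 mixed (difference 0.05, interval -0.12 to 0.22, adjusted p = 0.68). In each of these 3 genes the groups overlapped, and alone replicate 1 was the highest array.

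RPS24, a small subunit protein singled out after its values were seen, had the widest interval. It read -1.92, -0.73 and -0.86 alone and -2.29, -1.66 and -1.64 mixed. Here alone replicate 1 lay below 2 of the 3 mixed arrays, and the difference of -0.69 had an interval of -1.52 to 0.13 (adjusted p = 0.22). Without alone replicate 1 it was -1.07 and called (limma adjusted p = 0.026), and with the replicate number as a block it was called at the same difference of -0.69 (adjusted p = 0.043). The only probe under its name was dim, with intensities between 129 and 423.

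Large subunit genes had a median log2 difference of -0.06, with 19 of 27 below 0 and 1 of 27, RPL34, called. The bright probes as a whole were alike, with a median of -0.05 and 797 of 1217 below 0. Without alone replicate 1 the large subunit median was -0.0059 with 14 of 27 below 0, beside -0.01 over all tested probes, while the small subunit median became 0.05 with 4 of 19 below 0.

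RPL7, a large subunit protein, read 7.14, 6.99 and 6.97 alone and 6.84, 6.83 and 6.80 mixed. All mixed arrays were lower, by -0.21 (95% interval -0.39 to -0.03), which did not pass the adjusted threshold (adjusted p = 0.12). RPL18 and RPL24, named after their values were seen, were alike in size, at -0.20 (adjusted p = 0.11) and -0.20 (adjusted p = 0.19), each with all mixed arrays lower. A probe described as ribosomal protein L18, outside the rule, gave -0.17 (adjusted p = 0.20) with all mixed arrays lower. A similarly bright probe outside the rule, beside the RPL24 probe on chromosome 33, gave only -0.03 (adjusted p = 0.82) with overlapping groups. At the other end stood RPL27A, also named after its values were seen, which read 0.16, 0.20 and 0.26 alone and 0.35, 0.47 and 0.49 mixed. Its groups did not overlap, and the difference was 0.23 (interval 0.05 to 0.41, adjusted p = 0.096). This probe was dim, with intensities between 693 and 901. Another dim probe, described as ribosomal protein L27a and so outside the rule, went the other way. It gave -0.45 (adjusted p = 0.28) with overlapping groups.

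RPLP0, the base of the acidic stalk and a common reference gene, read 8.39, 8.33 and 8.32 alone and 8.32, 8.32 and 8.39 mixed. Its difference was -0.00024 (interval -0.16 to 0.16, adjusted p = 1.00). RPL13A, another common reference gene, read 7.91, 7.57 and 7.55 alone and 7.68, 7.61 and 7.63 mixed (difference -0.04, interval -0.31 to 0.22, adjusted p = 0.83). RPL10A read 8.10, 7.91 and 7.93 alone and 7.94, 7.95 and 7.88 mixed (difference -0.06, interval -0.25 to 0.13, adjusted p = 0.67). Groups overlapped in all 3, and for RPL13A and RPL10A alone replicate 1 stood above every other array.

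The paralogues were set against their parents within each array, where the scaling cancels. Of 10 pairs listed, 3 had both genes on the array. The log2 ratio of RPL3L, the striated muscle form, over RPL3 was -10.2 ± 0.133 alone and -9.95 ± 0.0128 mixed (SD, n = 3 each), higher in every mixed array by 0.26. The exact two-sided permutation p was 0.1, the smallest that 3 against 3 arrays can give, and 0.3 after adjustment over the 3 pairs. RPL3L alone differed by 0.22 (interval 0.00087 to 0.44, adjusted p = 0.16) from a dim probe that read -1.31, -1.42 and -1.60 alone and -1.22, -1.26 and -1.20 mixed. RPL3 read 8.85, 8.70 and 8.77 alone and 8.74, 8.71 and 8.74 mixed (difference -0.05, interval -0.22 to 0.13, adjusted p = 0.70). How the ratio's shift divides between RPL3L and RPL3 depends on the scaling. Scaled to the spike-in controls, RPL3L differed by 0.05 and RPL3 by -0.21, at the same ratio shift of 0.26. In the main scaling the other RPL3L probe, not used for the ratio, gave 0.09, smaller than 0.22, and was not called.

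The ratio of RPL7L1 over RPL7 was -6.67 ± 0.113 alone and -6.84 ± 0.0724 mixed (SD, n = 3 each), a difference of -0.17 with overlapping groups (exact permutation p = 0.2, adjusted 0.3). By these probes RPL7L1 and RPL7 were thus both lower in all mixed arrays, and their ratio was not shown to differ. The brighter RPL7L1 probe outside the rule, at -0.11 with overlapping groups, was not used for the ratio. The ratio of RPL22L1 over RPL22 was 10.5 ± 0.162 alone and 10.6 ± 0.0677 mixed, a difference of 0.0065 (exact permutation p = 1.0). RPL22L1 read 8.72, 8.61 and 8.62 alone and 8.82, 8.72 and 8.83 mixed (difference 0.14, interval -0.04 to 0.32, adjusted p = 0.25). The 3 probes of RPL22L1 disagreed in sign, with differences from -0.20 to 0.14 and none called, and the ratio used only the brightest. RPL22, whose paralogue RPL22L1 is, read -1.64, -2.02 and -2.03 alone and -1.66, -1.88 and -1.76 mixed (difference 0.13, interval -0.17 to 0.44, adjusted p = 0.52). The only probe under the name RPL22 was dim, with intensities between 158 and 200. RPL26, the parent of a pair whose paralogue is not a name on the array, differed by 0.20 (interval -0.06 to 0.45, adjusted p = 0.25). RPS19BP1, the binding partner, read 4.18, 3.82 and 3.84 alone and 3.98, 4.02 and 3.91 mixed, with overlap (difference 0.02, interval -0.25 to 0.29, adjusted p = 0.92).

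Most members were high on the same array. Of the 50 genes, 47 were higher in alone replicate 1 than in the other alone arrays, and 39 had their highest value of all 6 arrays there, against 46.8% and 22.0% of all tested probes and 80.2% and 62.6% of the 1217 bright probes. The members' median deviation from their own mean was 0.12 in alone replicate 1 and between -0.05 and -0.01 in the other 5 arrays. The median over all tested probes in alone replicate 1 was 0.01.

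**Figure D3:**
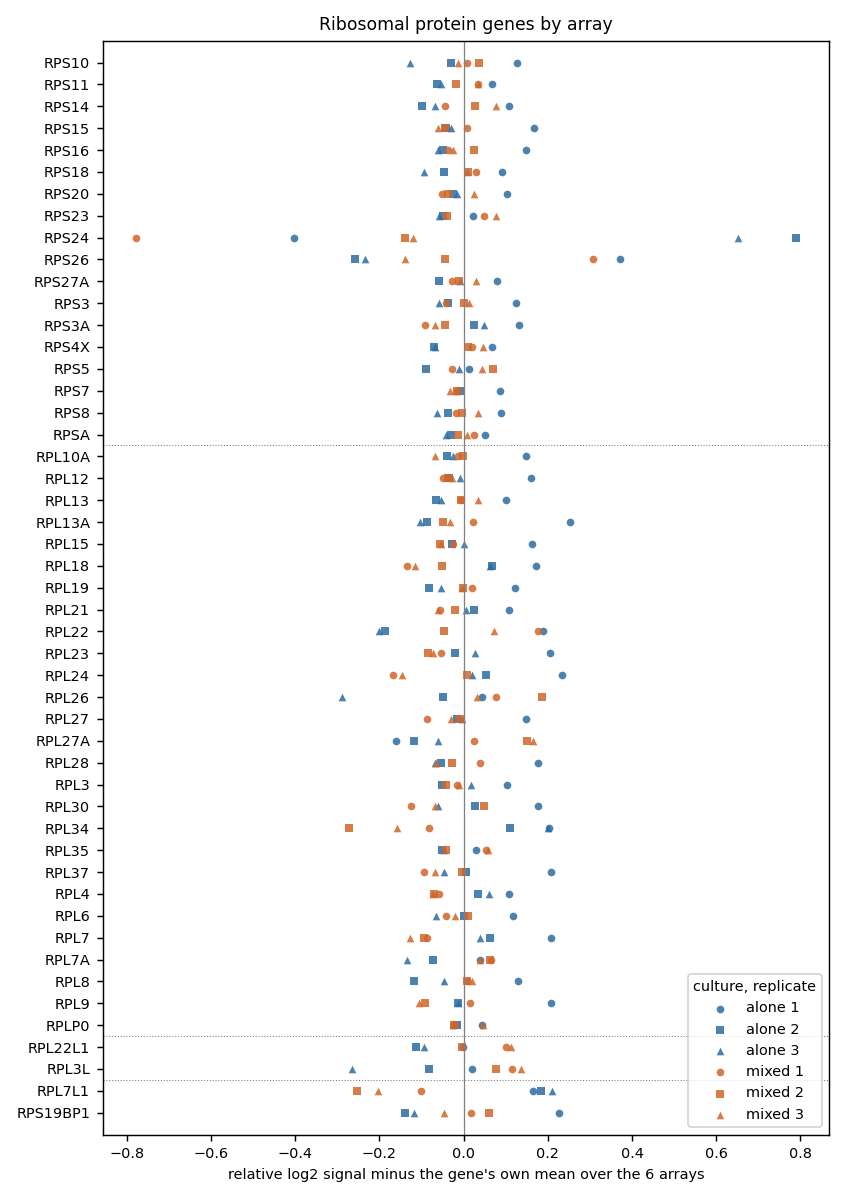
Relative log2 signal of 49 of the 50 genes minus the gene's own mean over the 6 arrays, with blue for alone, orange for mixed, and circles, squares and triangles for replicates 1, 2 and 3; dotted lines separate small subunit, large subunit, paralogues and the 2 genes that encode no ribosomal protein. Alone replicate 1 lies to the right for most genes, and the other 5 arrays lie close together except in RPS24, RPS26 and a few others.

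Bright probes in general sat high on that array too. The median gap of alone replicate 1 to the mean of alone replicates 2 and 3 was 0.16 over the members, 0.14 over the 1217 bright probes and 0.03 over all tested probes. The spike-in controls used for scaling deviated on average by 0.11 on alone replicate 1, -0.22 and -0.14 on the other alone arrays, and by 0.0087 to 0.13 on the mixed arrays. The part of these array differences in the members' values was not tested.

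**Figure D4:**
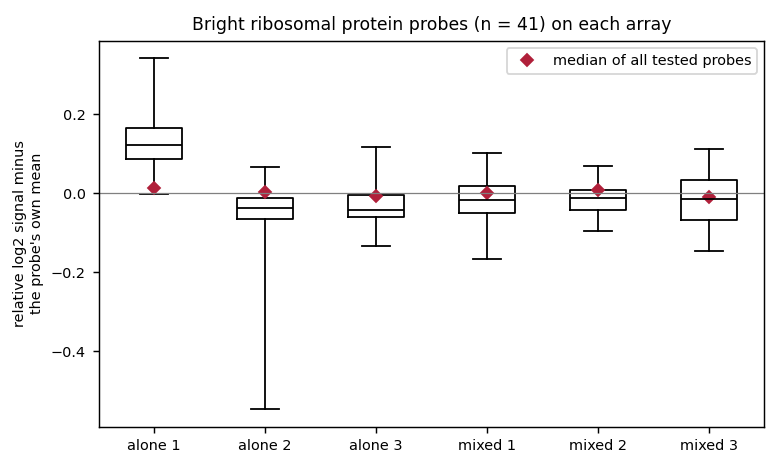
Deviation of the 41 members with bright probes from their own mean on each array; the box spans the quartiles, the line is the median, the whiskers reach the extremes, and red diamonds give the median of all tested probes. The box of alone replicate 1 lies above the rest, with a median of 0.12.

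The correlation among members differed with and without this array. Over the 820 pairs of the 41 bright members the median Pearson r across the 6 arrays was 0.66, and across the 5 arrays without alone replicate 1 it was 0.05. These points share arrays, scaling and labelling, and the values are a description.

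The mixed arrays were the closer group. The median SD of a member over 3 arrays was 0.09 alone and 0.03 mixed, and it was smaller in mixed culture for 43 of 50 members, 61.4% of all tested probes and 76.7% of the bright probes. Alone replicates 2 and 3 differed by a median of 0.03 over the members. Without alone replicate 1 the members' median log2 difference was 0.04 rather than -0.02.

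Several probes allowed each of 28 genes to be read more than once. The spread of the difference between probes of the same gene had a median of 0.13 and reached 0.64, and in 13 of the 28 genes all probes had the same sign. In 6 pairs of probes whose ends shared an identical run of bases the differences lay within 0.07 of each other. The RPL15 probes printed above gave -0.09 and -0.11.

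**Figure D5:**
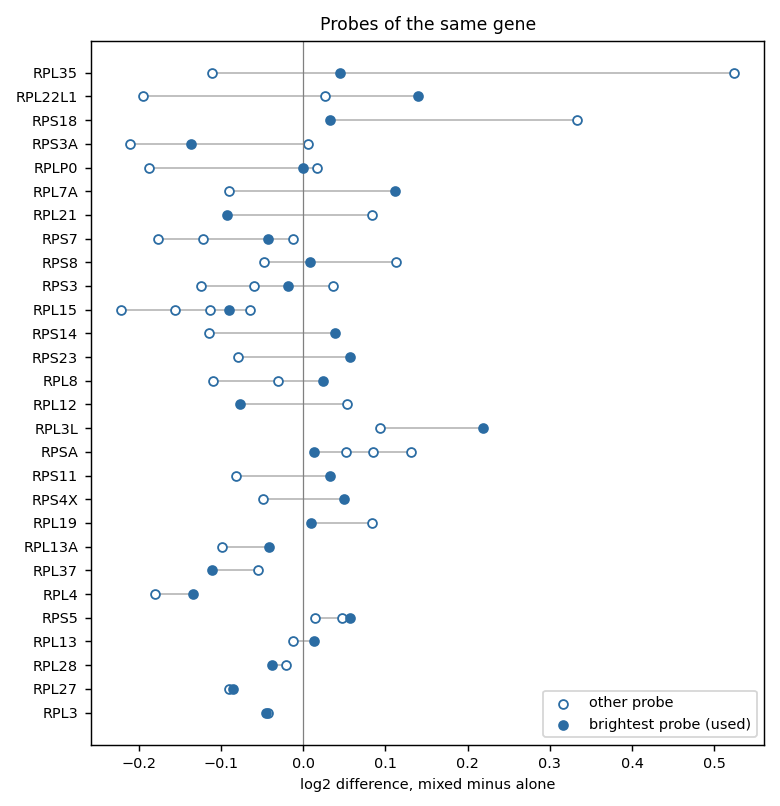
Log2 difference, mixed minus alone, of every probe of the 28 genes with several probes; filled points are the brightest probe, which was used, and open points the others. RPL35 has the widest spread, from -0.11 to 0.52, and none of these probes was called.

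RPL35, RPLP0 and RPS3, named here after their values were seen except where the rule names them, show the range. The 3 probes of RPL35 gave 0.05, -0.11 and 0.52, the last from a dim probe with an interval of -0.009 to 1.06 and an adjusted p of 0.16. The intron-crossing RPLP0 probe printed above gave -0.19 (interval -0.36 to -0.01, adjusted p = 0.14) with all mixed arrays lower, while the 2 other RPLP0 probes gave -0.00024 and 0.02. The printed RPS3 probe gave -0.12 (adjusted p = 0.28), also with all mixed arrays lower, and the other 3 gave -0.02, 0.04 and -0.06. For RPS18 the brightest probe lies on chromosome 12 and gave 0.03, and a dim probe under the same name lies on chromosome 17 and gave 0.33 (adjusted p = 0.22). Ribosomal protein genes have many processed pseudogenes, and a 60-base probe may also bind their transcripts or a close copy.

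The genes that build and drive ribosomes were read from the same fit, from lists chosen by function. Over 6 lists with 232 tested genes, 24 were called, 21 of them lower and 3 higher, and the median log2 difference was -0.11. Over all tested probes 11.2% were called and 5.72% were called lower, and by list the share called ran from 5.56% to 13.3%. The count of 24 depended on single arrays. Without alone replicate 1 there were 58 calls and without mixed replicate 1 there were 9, and without any other single array there were 0.

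Mitochondrial ribosomal proteins, which serve the separate ribosome of the mitochondrion, had 7 of 62 genes called, all lower, with a median of -0.12 (11.2% of all tested probes were called). MRPS5 differed by -0.45 (adjusted p = 0.020), MRPL47 by -0.42 (adjusted p = 0.019) and MRPL3 by -0.38 (adjusted p = 0.022). The cytosolic members had 2 of 50 called.

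Among 73 ribosome biogenesis genes 4 were called lower and 1 higher, with a median of -0.15. RRP1B, a nucleolar processing factor, differed by -0.49 (adjusted p = 0.036), RRS1, which acts in large subunit assembly, by -0.46 (adjusted p = 0.023) and RRP9, of the small subunit processome, by -0.44 (adjusted p = 0.039). NVL, an ATPase of large subunit maturation, was the one called higher, by 0.39 (adjusted p = 0.026).

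Initiation and elongation factors had 6 of 45 called, all lower, with a median of -0.13. EIF5B, which joins the subunits, differed by -0.48 (adjusted p = 0.021), ABCE1, which recycles them, by -0.39 (adjusted p = 0.026) and EIF4E, the cap-binding protein, by -0.38 (adjusted p = 0.038). The abundant elongation factors were not called, EEF1A1 at 0.05 (adjusted p = 0.75) and EEF2 at 0.03 (adjusted p = 0.84).

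Of 18 other mRNAs with a terminal oligopyrimidine tract 1 was called, IPO7, an importer of ribosomal proteins into the nucleus, at -0.31 (adjusted p = 0.038). TPT1 differed by -0.07 (adjusted p = 0.57), GNB2L1 (RACK1), a protein of the small subunit, by -0.16 (adjusted p = 0.18) and NPM1, a nucleolar chaperone, by -0.13 (adjusted p = 0.28).

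Upstream, 3 of 24 genes of mTORC1 and the S6 kinases were called, with a median of 0.12. MLST8, a subunit of the mTOR complexes, differed by 0.74 (adjusted p = 0.048), LARP4 by -0.39 (adjusted p = 0.024) and RPS6KA3, a kinase downstream of MAPK, by -0.32 (adjusted p = 0.044). MTOR at 0.11 (adjusted p = 0.42), RPS6KB1 at 0.01 (adjusted p = 0.96) and EIF4EBP1 at 0.21 (adjusted p = 0.42) were not called.

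Of 21 genes around MYC and ribosomal stress 2 were called. CDKN1A, the cell cycle inhibitor p21, differed by -0.86 (adjusted p = 0.023) and MNT, a MYC antagonist, by 0.58 (adjusted p = 0.040). MYC itself was not called (-0.09, adjusted p = 0.52).

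Marker lists were read for the sorted population. All 9 kidney epithelial markers tested were well above background, with a summed relative signal of 467 to 554 in the alone arrays and 561 to 592 in the mixed arrays, and 1 was called (CLDN2, 2.49, adjusted p = 0.010). Of 12 fibroblast and leukocyte markers, COL3A1, PDGFRA and PTPRC were not well above background on any array, and the 7 tested summed to 2.86 to 3.03 alone and 3.19 to 3.38 mixed. Of 13 Ras-MAPK output genes 5 were called, 4 lower and 1 higher (11.2% of all tested probes were called). Their summed signals were 132 to 136 alone and 112 to 127 mixed. The part of these shifts in the ribosomal protein values was not tested.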

How the data were processed

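RNA of 6 samples was hybridised to 1-colour (Cy3) Agilent canine arrays. The authors deposited the output of Agilent Feature Extraction 10.10.1.1 for each array, in which the processed signal is a background-subtracted, detrended intensity, with the raw mean and local background intensity beside it. They also deposited a log2 table, whose values equal the log2 processed signal minus a constant per array near its 75th percentile. No normalization is given in the sources used here beyond this. Probe names, positions (canFam3) and sequences came from the array files.

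Here, control spots and outlier-flagged spots were left out, spots of one probe averaged, and log2(processed signal) was scaled by each array's 75th percentile over 43603 probes. The 26535 probes that the scanner software marked well above background in every array of either group were tested by limma 3.58.1 in R 4.3.3 (lmFit and eBayes, two-sided, Benjamini-Hochberg, threshold 0.05), mixed (3) against alone (3). Gene pairs were tested by exact permutation over arrays. Tables and plots were made with Python 3.11.15, pandas 2.3.3, numpy 2.4.6 and matplotlib 3.10.9. The fit was tested on simulated data with planted changes larger than the difference of any member. That test does not show how the fit performs at the members' sizes.

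Members and lists were chosen with earlier results of these data known. The text names called members, paralogue pairs, a fixed set of reference members, and of each other list the 3 called genes with the largest difference and a fixed set. Arrays with the same replicate number correlated, after removing group means, at 0.349, 0.162 and 0.296 over 26529 probes, each over 0.1, so the numbers were taken to pair the samples, although alone replicate 2 correlated more with mixed replicate 3 (0.238) than with its own number. The number is also the array's place on its slide. The pairing comes from this check, not from the labels. The main fit, its intervals and the permutation tests did not use this pairing, and only the replicate block among the alternatives did. Alternatives were other scalings, filters, the deposited table, the replicate block, each replicate left out, and other choices of probe and member. The sets with wider membership, with bright probes only and without RPL7L1 and RPS19BP1 were added after seeing the data. One member is not reported here by name.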

Additional observations from a re-analysis of the deposited data

How the results depend on the processing

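The count of called ribosomal protein genes was 2 in the main analysis, with quantile normalization, with the deposited table, with all 6 arrays required above background, and with the mean or the dimmest probe of each gene. It was 4 with normexp (3 lower, 1 higher, with RPL18 and RPL27A added), 3 with the replicate block, and 0, all directions included, with spike-in scaling, with no filter and at 1.5-fold. It was 1 with the methods' t-test, 1 (lower) for the core genes only and 1 without RPL7L1 and RPS19BP1, and, in sets chosen after seeing the data, 0 for bright probes and 4 (all lower) with probes named by description. Leaving out one replicate gave 0 to 3 called, 0 to 3 lower and 0 higher, and a median of -0.05 to 0.04. Spike-in scaling moved the members' median to -0.19 and that of all tested probes to -0.17.

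Calls over all tested probes were 2978, 1165 with spike-in scaling, 12 with no filter, and 7 to 7335 leaving out one replicate (7335 without alone replicate 1). For the other translation lists they were 24, 45 with normexp, 5 with spike-in scaling, 0 with no filter, and 0 to 58 leaving out one replicate. The RPL22L1 over RPL22 difference of 0.0065 became -0.012 with quantile normalization and -0.022 with normexp, and -0.087 to 0.061 leaving out one replicate. The differences of RPL7L1 and RPL34 kept their direction in all 13 alternatives run on single genes, and lost their calls in 13 of these 26 values. The other 12 genes run through these alternatives were RPL3, RPL3L, RPL7, RPL10A, RPL13A, RPL22, RPL22L1, RPL26, RPLP0, RPS3, RPS4X and RPSA. None of these 12 was called in any of the alternatives. RPL18, RPL27A and RPS24, each called under some other setting, are not among the 12. The replicate block added RPS24 and changed no other member's call. A slide block could not be fitted. The cause of these changes was not tested.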

Other observations

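Further probes carry no ribosomal protein name but a description that names a mammalian cytosolic ribosomal protein. There were 84 such probes, of which 60 were tested, and these are outside the rule and were examined after the members' values were seen. Their median log2 difference was -0.04, with 39 below 0, and the groups did not overlap for 11, 9 of them with mixed lower. Over all tested probes 37.2% had groups without overlap, 19.4% with mixed lower, and 11.2% were called. Of these 60 probes limma called 2, both lower and both dim, a probe described as ribosomal protein S26 (-0.32, adjusted p = 0.035) and one described as L32 (-0.28, adjusted p = 0.049). Other probes for these proteins were not called, the member RPS26 at 0.08 (adjusted p = 0.81) and further probes described as L32 at -0.14 and 0.09. The acidic stalk proteins absent from the names appear here. Both probes described as P1 gave -0.02 and -0.09, both described as P2 gave -0.06 and -0.08, and the probe described as S19 gave 0.07, none of them called (adjusted p of 0.51 to 0.89). In 42 of the 60, alone replicate 1 was the highest of the alone arrays, against 46.8% of all tested probes and 80.2% of the bright probes.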
